A study of Mus musculus with 12 samples.

Results

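The solute carrier (Slc) genes of RAW 264.7 cells, a mouse macrophage cell line, were followed across a control, PSTO, LPS and PSTO+LPS. Members were chosen by symbol, beginning with Slc and a digit, and selected on level: a group mean of at least 5 CPM (reads per 1000000 of the column total) in at least one of the 4 groups. Of the 55137 genes in the table, 379 carried such a symbol. The rule set 10 of these aside by name (Slc2a1, Slc7a1, Slc7a2, Slc7a11, Slc11a1, Slc11a2, Slc16a3, Slc30a1, Slc39a14 and Slc40a1), 206 stayed under 5 CPM in every group, and 163 were members. The members just inside that limit were Slc2a4rg-ps at 5.04 CPM, Slc17a9 at 5.10 and Slc2a8 at 5.23 in their top group, and those just outside were Slc26a11 at 4.75, Slc39a2 at 3.98 and Slc16a9 at 3.88.

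RNA sequencing was run on total RNA from 3 libraries in each of the 4 groups. Control cells received vehicle alone. PSTO cells received 20 uM PSTO, an abbreviation the labels do not spell out, in a series whose title speaks of garlic extract. LPS cells received vehicle for 30 min and then 500 ng/mL lipopolysaccharide, the bacterial cell wall component sensed by Toll-like receptor 4. PSTO+LPS cells received 20 uM PSTO for 30 min and then 500 ng/mL LPS, and harvest followed after 6 h. The labels do not say that libraries of a group came from separate cultures, so every p-value measures only the spread between these libraries, which may be technical. RAW 264.7 is a virus-transformed line and stands in for primary macrophages only in part, and in bulk RNA fewer cells expressing a gene and less RNA per cell cannot be told apart.

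Solute carriers are membrane proteins that move amino acids, sugars, ions, vitamins, nucleotides and metals across the cell surface and the membranes of organelles. Most are secondary transporters that use a gradient of sodium, protons or another solute, and a few are facilitators or the partner chains of heteromeric carriers. In macrophages they supply the fuel, amino acids and cofactors used during activation, load lysosomes and mitochondria, and hold intracellular osmolytes.

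The libraries held 15817880 to 28625784 reads assigned to genes, and replicates of a group correlated at Spearman 0.988 to 0.993. All 8 macrophage markers were present in every group, with summed levels of 8867 to 13504 CPM. Epithelial and fibroblast markers summed to at most 0.536 CPM and T cell markers to at most 0.752, B cell markers reached 12 CPM in LPS, and neutrophil markers reached 10.9 CPM in PSTO+LPS. Levels below are CPM scaled by trimmed mean of M values (TMM). The TMM factors were 1.17 to 1.21 without LPS and 0.832 to 0.851 with LPS, so that on column totals every log2 change would be lower by 0.53 for LPS against control and by 0.49 for PSTO+LPS against PSTO. A rise with LPS smaller than these shifts would read as a fall there.

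Of the 163 members, 134 were at or above 5 CPM in all 4 groups, and these were tested between groups with edgeR's quasi-likelihood test. The fit and the p-value adjustment took in every gene of the table that passed a filter on low counts. The other 29 lay under 5 CPM in at least one group and are given by their values alone. Because the rule chose members on their level, being expressed is no finding here. After LPS alone, 39 of the 134 were higher and 55 lower than in control at an adjusted p under 0.05, which is 70.1% called. Of the 14505 genes tested 62.9% were called, and 74.3% of the 8487 genes at 5 CPM in all 4 groups, so the share of carriers called lay near that of genes expressed as highly. The lower calls made up 41% of the carriers and 33% of those 8487 genes, and the higher calls 29.1% and 41.3%. With PSTO present in both groups, LPS left 35 carriers higher and 68 lower (76.9% called, against 59.7% of all tested genes and 71.8% of those at 5 CPM in all groups). The higher calls were 26.1% of carriers and 37% of the 8487, and the lower 50.7% and 34.7%. PSTO alone left 28 higher and 37 lower (48.5% called, against 30.6% and 41.8%), where 20.3% of the 8487 were higher and 21.5% lower. PSTO added before LPS left 31 higher and 56 lower than LPS alone (64.9% called, against 38.3% and 49.8%), where 20.1% of the 8487 were higher and 29.7% lower. The median log2 change of the 134 was -0.06 for LPS, -0.21 for LPS after PSTO, -0.03 for PSTO and -0.15 for PSTO+LPS against LPS, beside 0.07, 0.02, -0.00254 and -0.05 over the 8487 genes. Comparisons with control share the control libraries and those with LPS share the LPS libraries, so their values stand side by side and are not independent.

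**Figure D1:**
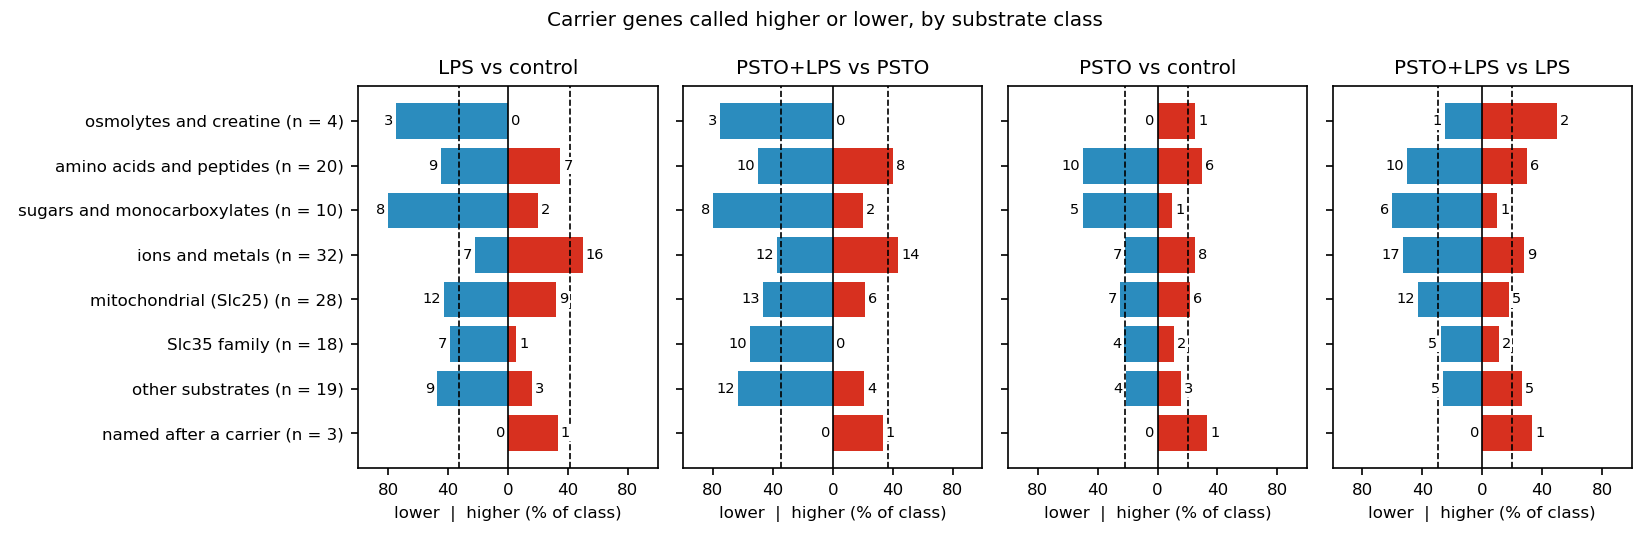
Share of the members of each substrate class called higher or lower in each comparison (x axis, percent of members at 5 CPM in all 4 groups; numbers beside bars are member counts; dashed lines are the shares of all 8487 genes at that level). Sugar and monocarboxylate carriers were lower in 8 of 10 members with LPS, and ion and metal carriers were higher in 16 of 32.

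The class of osmolytes and creatine held 4 members, and one of them, Slc5a3, had the largest difference between LPS alone and LPS after PSTO among the 134. Slc5a3, the sodium-coupled transporter of myo-inositol, a compatible osmolyte and the precursor of inositol phospholipids, stood at 108, 118 and 104 CPM in the control libraries and at 133, 109 and 111 with PSTO. With LPS it read 13.1, 17.5 and 13.2 CPM, and with PSTO+LPS 103, 88.2 and 72.9. The 3 LPS libraries were far below all others, and the PSTO+LPS libraries all lay below the control libraries, one of them only just. Slc5a3 fell by 2.92 on the log2 scale with LPS (SE 0.12, adjusted p = 1.27e-13), and it was higher by 2.59 in PSTO+LPS than in LPS (SE 0.13, adjusted p = 1.72e-11). With PSTO present the LPS change was -0.42 (SE 0.11, adjusted p = 0.00243), and PSTO alone gave 0.10 (adjusted p = 0.542). The LPS change with PSTO minus that without, called the interaction below, was 2.49 (SE 0.16, adjusted p = 8.64e-09), the largest positive one among the 134 members.

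Slc6a8 carries creatine, the phosphate store of ATP buffering, with sodium and chloride. It read 238, 226 and 226 CPM in control, 293, 299 and 324 with PSTO, 120, 125 and 128 with LPS, and 311, 291 and 291 with PSTO+LPS. Only the LPS libraries lay below control among these groups, and the PSTO and PSTO+LPS libraries overlapped. It fell by 0.89 with LPS (SE 0.05, adjusted p = 1.80e-11), rose by 0.41 with PSTO (adjusted p = 4.69e-06), and was 1.26 higher in PSTO+LPS than in LPS (SE 0.05, adjusted p = 2.14e-12). Its interaction was 0.85 (SE 0.07, adjusted p = 1.97e-07).

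The other two members of the class did not follow that pattern. Slc6a6, the taurine transporter, read 666, 646 and 663 CPM in control, 628, 656 and 633 with PSTO, 324, 310 and 315 with LPS, and 336, 321 and 299 with PSTO+LPS. It fell with LPS by 1.06 and by 1.005 in the presence of PSTO (SE 0.05 for both, adjusted p = 1.82e-13 and 5.27e-13), and the LPS and PSTO+LPS libraries overlapped. Slc6a12, the betaine and GABA transporter, read 314, 327 and 327 CPM in control, 352, 297 and 278 with PSTO, 328, 309 and 335 with LPS and 211, 214 and 233 with PSTO+LPS. The PSTO+LPS libraries were the low ones, 0.56 below LPS (SE 0.07, adjusted p = 2.79e-06), and its LPS change without PSTO was 0.00 (SE 0.07, adjusted p = 0.963), a sign that flips to -0.15 under upper-quartile scaling. Per kilobase of merged exon, Slc6a12 at 96.3 CPM per kb and Slc6a6 at 57.1 were the most abundant of the class over the 4 groups, and Slc5a3, whose exons are long, stood at 7.57. Exons of Mrps6 share 1.46% of the Slc5a3 exon bases on the same strand. Mrps6, chosen after its values were seen, had means of 54.5, 45.9, 24.5 and 48.2 CPM in control, PSTO, LPS and PSTO+LPS, with an LPS change of -1.16 and an interaction of 1.23. Its part in the Slc5a3 counts was not tested.

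**Figure D2:**
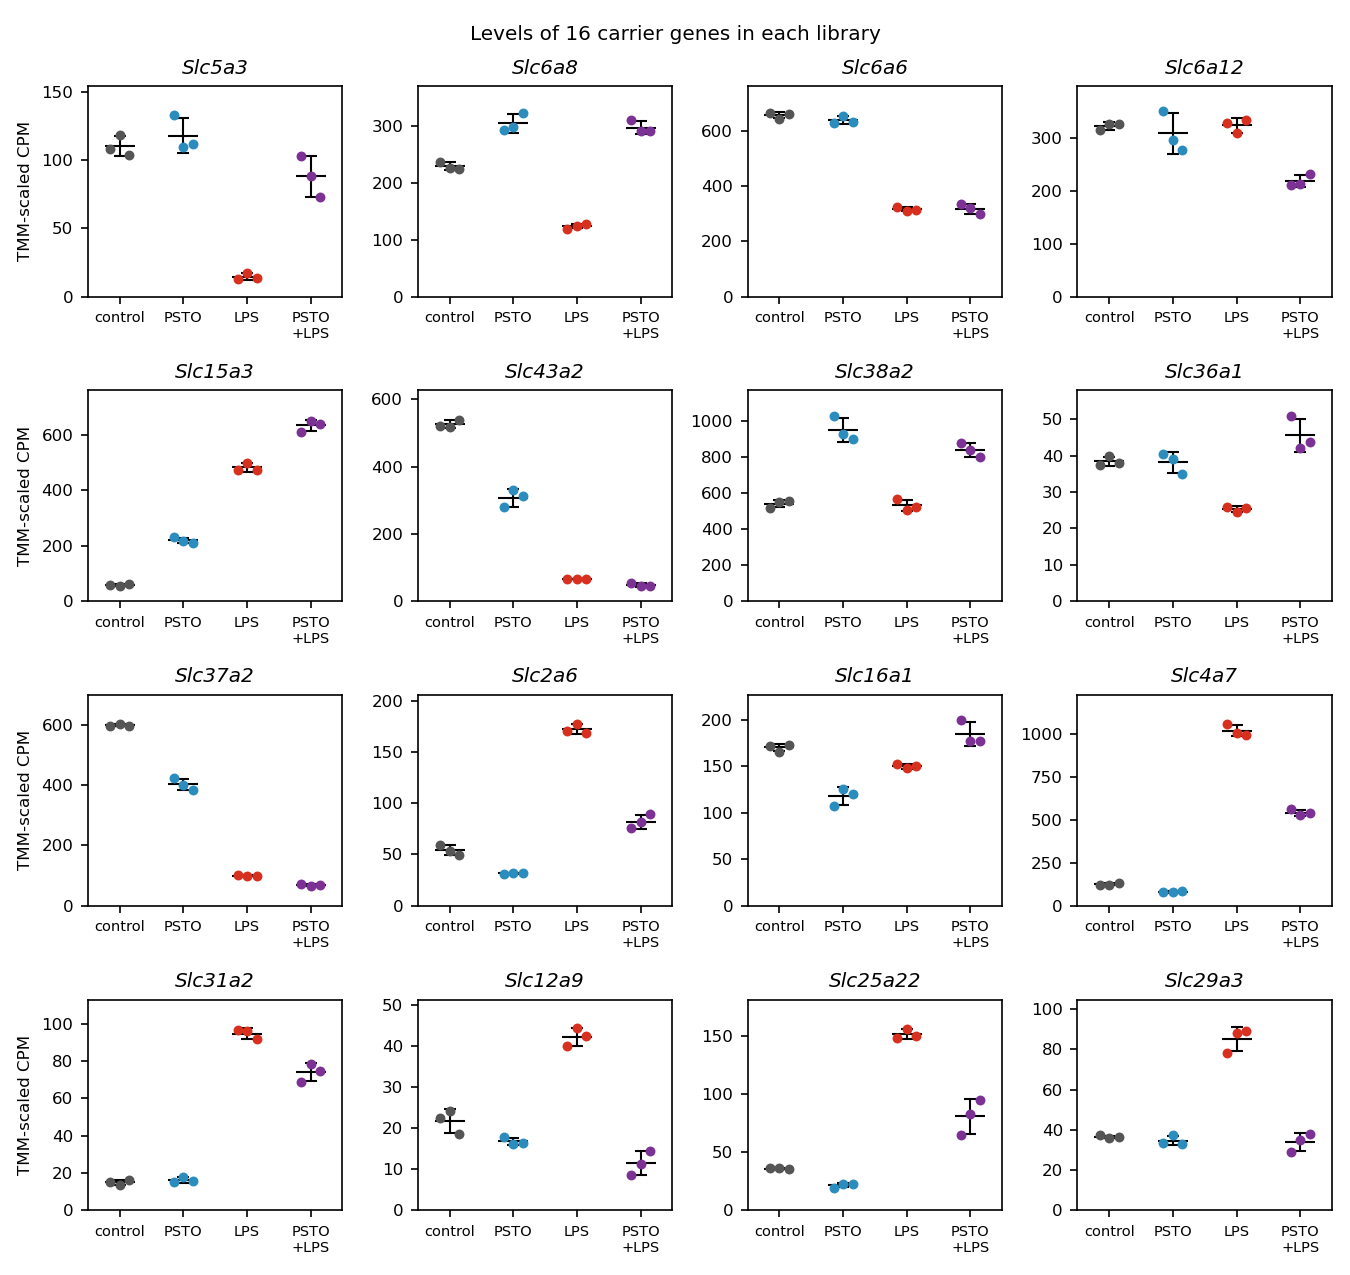
Level of leading carriers in each library (y axis, TMM-scaled CPM from 0; points are the 3 libraries of each group on the x axis, the horizontal mark is their mean and the error bar 1 SD). Slc5a3 and Slc6a8 are lowest in the 3 LPS libraries, and Slc15a3 rises from control through PSTO and LPS to PSTO+LPS.

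To show the start sites of members with a positive interaction, 3 promoters were chosen after their values were seen. Each run covers the 250 bases before the RefSeq start and 30 after it (GRCm38.p6), and capitals mark matches on either strand to an NRF2 element (TGACNNNGC), the antioxidant response sequence, or an E-box (CACGTG), the site of MITF and TFEB class factors. Slc5a3 held neither, and an interferon-response element (GAAA, 2 bases of any kind, GAAA) or a kappaB site (GGG, 2 bases of any kind, TTTCC) was in none of the 3.
Slc5a3, chr16:92058072-92058351, plus strand: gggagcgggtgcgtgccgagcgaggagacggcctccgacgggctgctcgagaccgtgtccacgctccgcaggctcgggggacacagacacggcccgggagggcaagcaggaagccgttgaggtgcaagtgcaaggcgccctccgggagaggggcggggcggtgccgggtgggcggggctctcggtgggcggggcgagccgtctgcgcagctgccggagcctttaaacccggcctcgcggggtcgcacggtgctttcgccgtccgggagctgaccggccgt
Slc16a1, chr3:104638414-104638693, plus strand: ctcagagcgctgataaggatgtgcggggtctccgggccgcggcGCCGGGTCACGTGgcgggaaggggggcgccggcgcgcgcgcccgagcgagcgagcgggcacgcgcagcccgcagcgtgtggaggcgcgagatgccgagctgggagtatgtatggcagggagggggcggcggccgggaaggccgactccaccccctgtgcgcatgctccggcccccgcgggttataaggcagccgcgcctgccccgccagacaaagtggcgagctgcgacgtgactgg
Slc36a1, chr11:55204090-55204369, plus strand: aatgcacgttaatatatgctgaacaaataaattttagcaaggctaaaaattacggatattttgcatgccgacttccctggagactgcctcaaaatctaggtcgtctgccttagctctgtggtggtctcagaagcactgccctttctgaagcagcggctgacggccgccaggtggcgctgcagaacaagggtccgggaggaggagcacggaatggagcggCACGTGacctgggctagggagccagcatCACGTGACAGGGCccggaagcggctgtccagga
In Slc16a1 an NRF2 element and an E-box overlap, and in Slc36a1 an NRF2 element overlaps the second of 2 E-boxes. The RefSeq promoters matched 125 of the 163 members, with 177 promoters of 300 bases in all. The NRF2 element was in 21.5% of these and in 12.4% of all 32851 promoters, the E-box in 14.7% and 7.15%, the interferon-response element in 1.69% and 3.44%, and the kappaB site in 1.69% and 1.63%. Members were chosen on their level, whereas the 32851 promoters include those of genes not expressed here. Whether these shares differ from those of equally expressed genes was not tested. Of the 16 members with a positive interaction 10 had a promoter, of which 3 held the NRF2 element and 2 both motifs. Those 2 are Slc16a1 and Slc36a1, printed above. Of the 34 with a negative one 27 had a promoter, of which 8 held the NRF2 element and 3 both. Of the 84 with no interaction called 67 had a promoter, of which 15 held the NRF2 element and 2 both. Among all genes with a promoter, 14% held the NRF2 element and 1.67% both motifs. These are matches of letters and say nothing of binding.

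Among 20 amino acid and peptide carriers, 7 were higher and 9 lower with LPS, and 6 were higher and 10 lower both for PSTO against control and for PSTO+LPS against LPS. Each of these comparisons called 80% of the class, beside 74.3%, 41.8% and 49.8% of the 8487 genes in the same order. Slc15a3, a proton-coupled histidine and oligopeptide carrier of the endolysosome, read 59.7, 55.3 and 60.8 CPM in control, 230, 219 and 210 with PSTO, 475, 500 and 474 with LPS, and 612, 651 and 641 with PSTO+LPS. No group overlapped another. It rose by 1.90 with PSTO (SE 0.05, adjusted p = 9.31e-15), by 3.04 with LPS (SE 0.05, adjusted p = 2.83e-19) and by 0.39 from LPS to PSTO+LPS (adjusted p = 3.87e-06), which gives an interaction of -1.51 (SE 0.07, adjusted p = 2.57e-10). Tmem132a overlaps 28.1% of its exon bases on the opposite strand, and since the counting's strand setting is not given in the sources used here its counts are uncertain by that overlap. Its relative Slc15a4 was lower in PSTO+LPS than in LPS by 0.82 (adjusted p = 2.00e-06), and its LPS change was 0.04 (adjusted p = 0.717).

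Slc43a2, a sodium-independent carrier of large neutral amino acids, fell the most of the class. It read 522, 518 and 539 CPM in control, 279, 330 and 312 with PSTO, 64.8, 66.8 and 64.5 with LPS and 54.0, 43.9 and 44 with PSTO+LPS. The groups did not overlap, and the changes were -3.01 for LPS (SE 0.07, adjusted p = 2.54e-17), -0.78 for PSTO (SE 0.07, adjusted p = 4.82e-08) and -0.46 from LPS to PSTO+LPS (SE 0.08, adjusted p = 7.43e-05). Slc7a8, a light chain that exchanges neutral amino acids, rose with LPS by 1.10 (adjusted p = 8.37e-12), from 122, 129 and 121 CPM to 262, 266 and 270, and PSTO lowered it with and without LPS, by 0.97 and 0.81 (adjusted p = 5.43e-10 and 9.69e-09). Slc3a2, the heavy chain CD98 that light chains need to reach the surface and the most abundant of the class at 170 CPM per kb, rose from 346, 335 and 356 CPM in control to 479, 506 and 518 with PSTO and 787, 820 and 797 with LPS. With PSTO+LPS it read 725, 756 and 767, and the difference from LPS was -0.10 (adjusted p = 0.0889).

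PSTO raised Slc38a2, the sodium-coupled carrier of small neutral amino acids that cells induce when amino acids run short. It read 519, 548 and 558 CPM in control, 1026, 929 and 899 with PSTO, 565, 507 and 522 with LPS and 879, 841 and 801 with PSTO+LPS. Every PSTO library lay above every library without it, by 0.81 without LPS and 0.66 with it (SE 0.06 for both, adjusted p = 1.65e-09 and 2.07e-08), and the LPS change was -0.03 (adjusted p = 0.699). Slc6a9, the glycine transporter, also rose with PSTO, by 0.74 and 0.73 (adjusted p = 6.49e-04 and 0.00179), and fell with LPS by 1.13 (adjusted p = 4.56e-06). Ccdc24 overlaps 27.8% of its exon bases on the opposite strand. Slc36a1, a proton-coupled exporter of small amino acids from lysosomes, read 37.5, 39.8 and 38.1 CPM in control, 40.4, 39.2 and 35 with PSTO, 25.9, 24.5 and 25.5 with LPS, and 50.9, 42.1 and 43.9 with PSTO+LPS. LPS lowered it by 0.60 without PSTO and it was 0.26 higher with PSTO (adjusted p = 3.74e-06 and 0.0109), an interaction of 0.86 (SE 0.12, adjusted p = 3.37e-05). Slc16a10, a carrier of aromatic amino acids, fell with PSTO by 1.02 (adjusted p = 1.37e-10) and rose with LPS by 0.52 (adjusted p = 1.43e-07). That rise depends on the scaling, since on column totals Slc16a10 averaged 137 CPM in control and 136 with LPS. Slc7a7, a light chain for cationic and neutral amino acids, was 1.13 lower in PSTO+LPS than in LPS (adjusted p = 8.05e-07).

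The 10 sugar and monocarboxylate carriers tested were all called after LPS, 2 higher and 8 lower, with a median log2 change of -0.90 (1 higher and 8 lower under upper-quartile scaling). Among the 8487 genes 41.3% were higher and 33% lower. Slc37a2, an antiporter of glucose 6-phosphate and phosphate in the endoplasmic reticulum and the most abundant of the class at 44.1 CPM per kb, read 599, 604 and 597 CPM in control, 424, 400 and 385 with PSTO, 102, 97.7 and 99.1 with LPS, and 72.3, 63.4 and 68.5 with PSTO+LPS. The groups were stepwise lower with no overlap, by 2.59 for LPS (SE 0.05, adjusted p = 2.42e-18) and 0.57 for PSTO (adjusted p = 5.38e-08). Slc2a3, a high-affinity glucose transporter, fell by 1.36 with LPS (SE 0.09, adjusted p = 5.93e-11), and Slc16a6, a member of the monocarboxylate carrier family, by 1.42 (SE 0.08, adjusted p = 7.47e-12). Amz2 overlaps 21.5% of the Slc16a6 exon bases on the opposite strand.

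Slc2a6, a hexose transporter of lysosomes, went the other way. It read 59.0, 53.5 and 49.4 CPM in control, 31.1, 31.9 and 31.4 with PSTO, 170, 178 and 169 with LPS and 75.2, 81.5 and 88.9 with PSTO+LPS. It rose with LPS by 1.67 (SE 0.07, adjusted p = 6.06e-14), and PSTO lowered it by 0.78 without LPS and by 1.07 with it (adjusted p = 8.79e-08 and 5.04e-10). Slc16a1, the lactate and pyruvate carrier whose promoter is shown above, read 172, 165 and 173 CPM in control, 107, 126 and 120 with PSTO, 152, 147 and 150 with LPS and 199, 177 and 177 with PSTO+LPS. PSTO lowered it without LPS by 0.53 (adjusted p = 1.77e-06) and raised it with LPS by 0.30 (adjusted p = 6.97e-04), and the interaction was 0.83 (SE 0.09, adjusted p = 1.65e-06). The PSTO libraries were its lowest and the PSTO+LPS libraries its highest, without overlap, an order that depends on the scaling. On column totals the means were 205 CPM in control, 139 with PSTO, 125 with LPS and 155 with PSTO+LPS.

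Of 32 ion and metal carriers tested, 16 were higher and 7 lower after LPS, and 9 were higher and 17 lower in PSTO+LPS than in LPS. That is 71.9% and 81.2% called, beside 74.3% and 49.8% of the 8487 genes. The LPS counts were 14 and 10 under upper-quartile scaling, and the class median of 0.20 is smaller than the shift of -0.53 to column totals, so its sign depends on the scaling. Slc4a7, an electroneutral sodium bicarbonate cotransporter that brings bicarbonate into the cell, read 122, 122 and 132 CPM in control, 76.7, 78.6 and 85.9 with PSTO, 1055, 1003 and 996 with LPS, and 560, 525 and 538 with PSTO+LPS. Its groups did not overlap. It rose by 3.02 with LPS (SE 0.05, adjusted p = 3.19e-19), and PSTO lowered it by 0.64 without LPS and 0.91 with it (adjusted p = 2.47e-08 and 8.85e-11). Slc31a2, a copper transporter relative of endosomes, rose from 15.1, 13.5 and 16.2 CPM to 96.8, 96.0 and 91.6 with LPS, and read 68.8, 78.4 and 74.9 with PSTO+LPS. The LPS change was 2.66 (SE 0.08, adjusted p = 6.91e-16), and Slc31a1, the copper importer of the cell surface, was higher by 0.43 with LPS and by a further 0.40 with PSTO+LPS (adjusted p = 7.17e-05 and 3.94e-04). The sign of the 0.43 depends on the scaling, since on column totals Slc31a1 averaged 72.6 CPM in control and 67.8 with LPS.

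Slc12a4 and Slc12a7 are potassium chloride cotransporters, which lower cell volume and chloride, and Slc12a9 belongs to the same family. All 3 were lower in PSTO+LPS than in LPS. Slc12a9 read 22.5, 24.2 and 18.6 CPM in control, 17.8, 16.2 and 16.4 with PSTO, 39.99, 44.3 and 42.5 with LPS and 8.58, 11.2 and 14.4 with PSTO+LPS. It rose with LPS alone by 0.96 (SE 0.13, adjusted p = 3.00e-06) and was 1.89 lower in PSTO+LPS than in LPS (SE 0.14, adjusted p = 5.06e-09), which gives an interaction of -1.52 (SE 0.19, adjusted p = 1.77e-05), the most negative of the 134. Slc12a4 rose with LPS by 1.54 (adjusted p = 1.22e-12), from 67.9, 63.5 and 68.8 CPM to 198, 193 and 192, and read 95.8, 122 and 122 with PSTO+LPS. Slc12a7 read 64.1, 68.0 and 65.4 CPM in control, 56.7, 52.8 and 51.5 with PSTO, 57.4, 61.5 and 60.6 with LPS, and 23.4, 25.7 and 26 with PSTO+LPS. Its PSTO+LPS libraries alone were low, 1.26 below LPS (adjusted p = 7.90e-11), and the LPS change without PSTO was -0.14 (adjusted p = 0.0639).

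Slc9a4, a sodium proton exchanger, rose with each agent, from 35.2, 31.1 and 35.5 CPM in control to 61.6, 62.3 and 61.7 with PSTO, 54.6, 49.7 and 51.5 with LPS, and 125, 121 and 111 with PSTO+LPS. The changes were 0.86 for PSTO and 1.20 for PSTO+LPS against LPS (adjusted p = 8.07e-09 and 7.07e-11). Of the zinc carriers, Slc39a6 was 0.57 higher in PSTO+LPS than in LPS (adjusted p = 1.13e-07) with an LPS change of 0.03 without PSTO (adjusted p = 0.616), whereas Slc39a13 was 1.39 lower (adjusted p = 1.25e-08). Slc41a2, a magnesium carrier, rose with PSTO by 0.67 (adjusted p = 1.72e-07), and Slc26a2, the sulfate transporter, fell with LPS by 0.88 (adjusted p = 6.62e-10). Slc24a5 shares 39.5% of its exon bases with Myef2 on the opposite strand, so that its counts carry the same doubt.

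The Slc25 family carries metabolites across the inner mitochondrial membrane, apart from a few members placed elsewhere, such as Slc25a17 in peroxisomes. Of 28 tested, 9 were higher and 12 lower after LPS, and 5 higher and 12 lower in PSTO+LPS against LPS. These calls made up 75% and 60.7% of the class, beside 74.3% and 49.8% of the 8487 genes. Slc25a22, a mitochondrial glutamate carrier, read 36, 35.9 and 35.2 CPM in control, 19.2, 22.8 and 22.7 with PSTO, 149, 156 and 150 with LPS, and 65.0, 82.9 and 94.7 with PSTO+LPS. It rose by 2.08 with LPS (SE 0.10, adjusted p = 4.87e-13) and was 0.91 lower in PSTO+LPS than in LPS (adjusted p = 3.57e-07), and the groups did not overlap. Slc25a37, the iron importer mitoferrin-1, read 93.0, 110 and 96.2 CPM in control, 145, 139 and 139 with PSTO, 302, 288 and 305 with LPS and 356, 356 and 361 with PSTO+LPS. It rose by 1.58 with LPS (SE 0.06, adjusted p = 1.08e-14) and by a further 0.26 with PSTO+LPS (adjusted p = 0.00107). Its relative Slc25a28, mitoferrin-2, was 0.56 lower in PSTO+LPS than in LPS (adjusted p = 4.39e-05) and had an interaction of -0.94 (adjusted p = 1.33e-05).

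Slc25a45 fell the most of the family, from 41.7, 41.7 and 42.0 CPM in control and 53.7, 51.1 and 49.7 with PSTO to 5.78, 7.26 and 6.70 with LPS and 6.39, 7.47 and 6.38 with PSTO+LPS. The LPS and PSTO+LPS libraries overlapped, and the LPS change was -2.67 (SE 0.10, adjusted p = 1.22e-14). Slc25a51, the importer of NAD+, fell with LPS by 0.84 (adjusted p = 2.31e-08), and Slc25a36, a pyrimidine nucleotide carrier, by 0.97 (adjusted p = 2.57e-07). Slc25a33, another pyrimidine nucleotide carrier, rose with PSTO by 0.82 (adjusted p = 1.06e-05). Slc25a5, the ADP/ATP translocase, at 452 CPM per kb and Slc25a3, the phosphate carrier, at 114 were the most abundant members of the family.

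The Slc35 family includes carriers of nucleotide sugars into the Golgi apparatus and endoplasmic reticulum, carriers of the sulfate donor PAPS and members with no established substrate. Slc35b1 was grouped with carriers of other substrates and is left out of the counts here. It was called higher after LPS in the presence of PSTO, a call lost under 3 of 19 alternative settings. The 18 tested in the Slc35 class held 1 higher and 7 lower calls after LPS. After LPS in the presence of PSTO they held 0 higher and 10 lower calls. That is 44.4% and 55.6% called, beside 74.3% and 71.8% of the 8487 genes. Slc35g1 had the largest fall with LPS, from 21.4, 21.8 and 21.5 CPM to 10.2, 9.12 and 9.26 (log2 change -1.17, adjusted p = 5.11e-06). Slc35b4, a carrier of UDP-xylose and UDP-N-acetylglucosamine, fell by 0.80 (adjusted p = 5.86e-08). Slc35e4 rose with PSTO by 0.49 (adjusted p = 2.33e-05), and Slc35f6 had an interaction of -0.68 (adjusted p = 4.54e-05). The one member called higher with LPS, Slc35a3, a carrier of UDP-N-acetylglucosamine, changed by 0.18 (adjusted p = 0.0117) and lost its call under 5 of 19 alternative settings. On column totals Slc35a3 averaged 137 CPM in control and 107 with LPS.

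Carriers of other substrates, 19 tested, held 3 higher and 9 lower calls after LPS (63.2% called, beside 74.3% of the 8487 genes). Slc17a5, the lysosomal exporter of sialic acid, read 59.7, 61.3 and 61.1 CPM in control, 29.4, 26.1 and 31.8 with PSTO, 12.9, 14.4 and 11.9 with LPS and 11.1, 12.8 and 10.5 with PSTO+LPS. It fell by 2.22 with LPS and 1.06 with PSTO (adjusted p = 2.43e-13 and 4.48e-08), and the LPS and PSTO+LPS libraries overlapped. Slc29a3, a nucleoside exporter of lysosomes, read 37.1, 36.1 and 36.5 CPM in control, 33.3, 37.2 and 33 with PSTO, 78.4, 88.0 and 89.4 with LPS and 29, 34.8 and 37.9 with PSTO+LPS. Its LPS libraries alone were high, 1.22 above control (SE 0.08, adjusted p = 2.14e-10), and PSTO+LPS was 1.33 below LPS (SE 0.09, adjusted p = 8.30e-10). Slc23a2, the ascorbate transporter, had the same shape, at 257, 256 and 256 CPM in control, 242, 239 and 231 with PSTO, 492, 490 and 488 with LPS and 233, 247 and 262 with PSTO+LPS. Its LPS change was 0.94 (adjusted p = 1.53e-12) and its interaction -0.88 (adjusted p = 4.68e-08).

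Slc22a4, the carrier of the antioxidant ergothioneine, was higher wherever PSTO was given. It read 14.1, 16 and 15 CPM in control, 25.3, 28.3 and 27.4 with PSTO, 16.3, 15.1 and 16.8 with LPS and 42.2, 34.9 and 35.2 with PSTO+LPS, so that no library with PSTO overlapped one without it. The changes were 0.85 without LPS and 1.22 with it (SE 0.10 for both, adjusted p = 1.96e-06 and 1.61e-08). Slc48a1, which carries heme out of the phagolysosome and was the most abundant of the class at 138 CPM per kb, rose by 0.37 with PSTO and by 0.74 from LPS to PSTO+LPS (adjusted p = 4.82e-04 and 1.60e-07). Slc19a1, the reduced folate carrier, fell with PSTO by 0.66 and by 1.08 in the presence of LPS (adjusted p = 9.43e-07 and 2.10e-09), and Slc44a2, a choline transporter-like protein, fell by 1.05 with PSTO (adjusted p = 6.99e-07) and 1.38 with LPS (adjusted p = 3.48e-09). Of 5 genes named after a carrier without being one, 3 were tested. Slc9a3r1, the scaffold NHERF1, rose with PSTO by 0.61 (adjusted p = 0.00114), and Slc7a6os rose with LPS by 0.58 (adjusted p = 3.26e-06).

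The interaction asks whether PSTO changed the size of the LPS response. Of the 134 members 16 had a positive and 34 a negative interaction (37.3% called, against 17.1% of all tested genes and 24.3% of the 8487). Of the 8487 genes 9.12% had a positive and 15.2% a negative interaction, beside 11.9% and 25.4% of the carriers. The count of 34 was 22 without control replicate 2, 20 without PSTO replicate 2 and 20 without PSTO replicate 3. The ion and metal class held 4 positive and 13 negative calls, the mitochondrial class 1 and 7, and the amino acid class 5 and 5. Over the 4 simple comparisons, 37 members (27.6%) were called in all 4, as were 20.5% of the 8487 genes. None of the 4 was called for 13 members (9.7%, beside 9.86% of the 8487), among them Slc35a2, the UDP-galactose carrier, and Slc39a7, 80.7% of whose exon bases are shared with Gm20427.

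**Figure D3:**
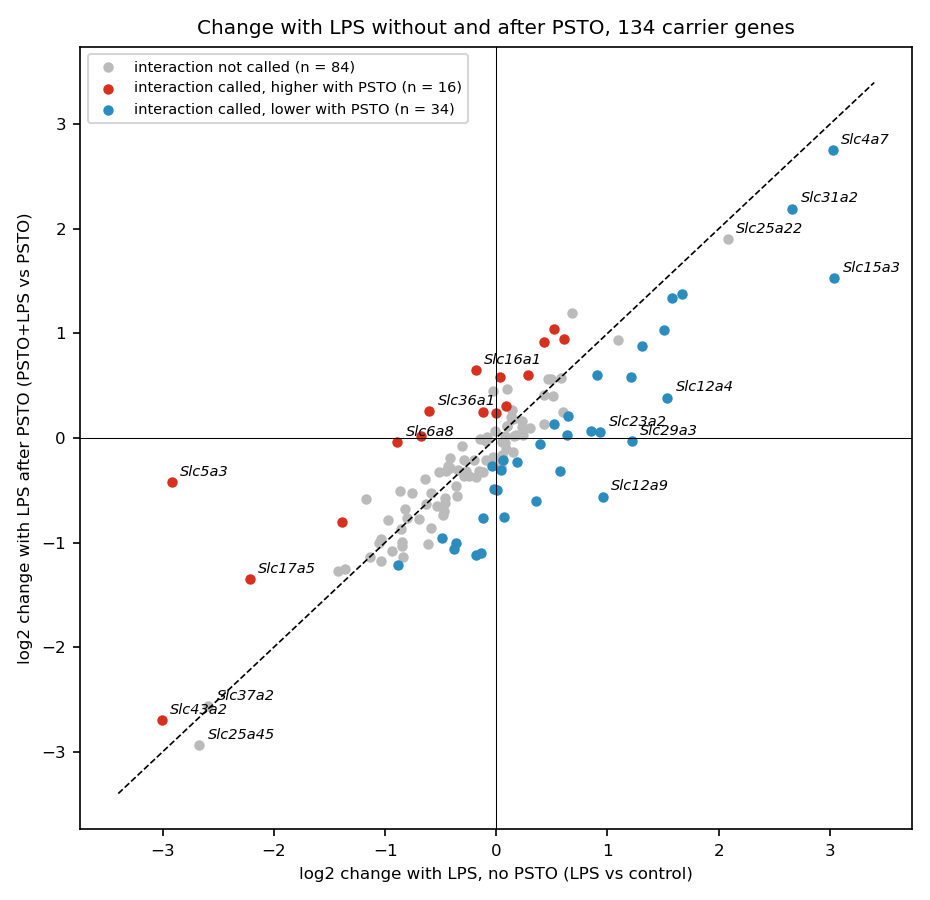
LPS change without PSTO (x axis, log2, LPS against control) and with PSTO (y axis, log2, PSTO+LPS against PSTO) for the 134 members, with the line of equal change. Slc5a3 lies far above the line, at -2.92 and -0.42, and Slc15a3 (3.04 and 1.53), Slc12a9 (0.96 and -0.56) and Slc29a3 (1.22 and -0.03) lie below it.

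The 29 members under 5 CPM in at least one group are described by their levels alone. Their highest group was control for 19, PSTO for 4, LPS for 4 and PSTO+LPS for 2 on column totals. These counts, and any difference or lack of overlap between groups given below for the 29, are no finding. The members passed the rule only through their higher groups, on the same values. Column totals also place the LPS groups lower than TMM scaling does. Slc16a12, a carrier of creatine grouped here with its monocarboxylate carrier family, was the most abundant, at 44.8, 49.2 and 48.3 CPM in control, 20.8, 24.4 and 25.5 with PSTO, 4.27, 6.08 and 7.45 with LPS and 11.8, 13.2 and 14.1 with PSTO+LPS. Its groups did not overlap. Slc6a4, the serotonin transporter, read 0.9997, 1.48 and 1.36 CPM in control, 0.546, 0.527 and 0.390 with PSTO, 14.5, 21.7 and 20.9 with LPS and 2.76, 6.49 and 9.36 with PSTO+LPS. Slc28a2, a concentrative nucleoside transporter, was at 0.0937 to 0.351 CPM in the 6 libraries without LPS and at 4.44 to 10.5 in the 6 with it. Slc39a4, the zinc importer ZIP4, averaged 1.84 CPM in control, 3.27 with PSTO, 6.46 with LPS and 17 with PSTO+LPS, in 4 groups that did not overlap apart from control and PSTO.

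Slc17a6, a vesicular glutamate transporter, averaged 1.71 and 2.05 CPM in control and LPS, and 8.61 and 8.81 in PSTO and PSTO+LPS. Slc4a11 was highest with PSTO alone, at 6.44, 3.72 and 3.62 CPM, with at most 1.28 in any other library. Means of control, PSTO, LPS and PSTO+LPS were 12.3, 6.74, 5.46 and 2.26 CPM for Slc8a1, the sodium calcium exchanger. In the same order they were 16.2, 11.5, 5.97 and 4.18 CPM for Slc25a10, the mitochondrial dicarboxylate carrier, so that both were highest in control and lowest with PSTO+LPS. Slc46a1, the proton-coupled folate transporter, averaged 7.38, 5.07, 2.10 and 1.82, and Slc7a4 5.45, 1.99, 0.489 and 0.507. The remaining 19 had group means of 1.64 to 12.7 CPM.

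**Figure D4:**
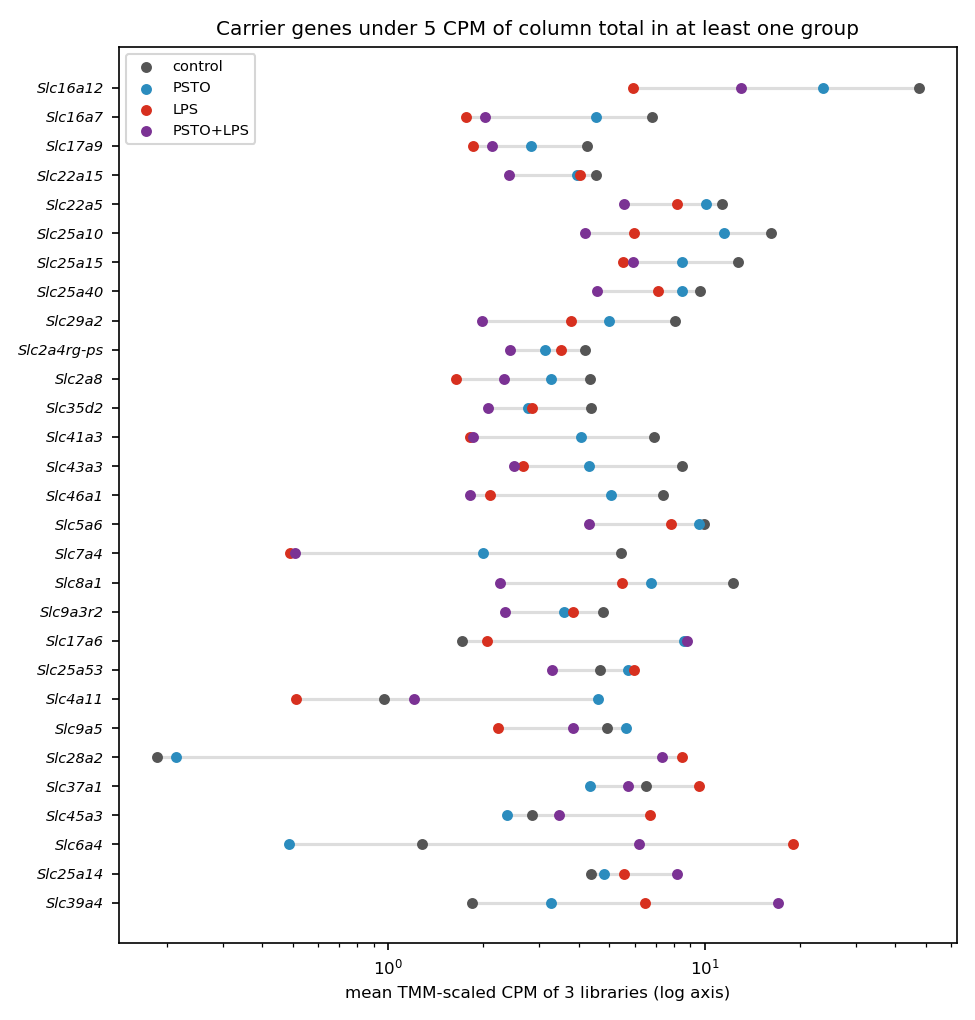
Level of the 29 members under 5 CPM of the column total in at least one group (x axis, TMM-scaled CPM on a log axis; points are group means, ordered by the highest group on column totals). The mean of Slc28a2 is 8.48 CPM with LPS and 0.186 in control, and that of Slc16a12 is 47.4 in control and 5.93 with LPS.

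Carriers that do not bear an Slc symbol were read from a list of 38 genes, of which 31 were tested. With LPS 8 were higher and 15 lower (74.2% called, against 62.9% of all tested genes and 74.3% of the 8487). With LPS in the presence of PSTO the counts were 6 and 12 (58.1% against 59.7% and 71.8%). With PSTO 6 were higher and 9 lower (48.4% against 30.6% and 41.8%), and in PSTO+LPS against LPS 6 and 8 (45.2% against 38.3% and 49.8%). The interaction was positive in 7 and negative in 3 (32.3% against 17.1% and 24.3%). The list itself was not limited by level. Mfsd2a, the lysophosphatidylcholine carrier, rose with LPS by 1.71 and was 0.77 lower in PSTO+LPS than in LPS. Its means were low, at 1.46, 1.32, 4.78 and 2.80 CPM in control, PSTO, LPS and PSTO+LPS, under 5 CPM in each. Sfxn3, a sideroflexin of mitochondria, fell with LPS by 2.14, and Slco4a1, an organic anion transporter, by 1.93. Among the members of the list whose interaction was called, Flvcr1, a choline and heme carrier, had the largest positive one, 1.04, and Mfsd12, which brings cysteine into lysosomes, the most negative, -0.89.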

How the data were processed

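The deposited table holds gene-level read counts, unnormalized, for 12 libraries, as the authors made it. Per the submitters' processing notes HISAT, DESeq2 and mm39 were used. Not given in the sources used here are the read counter, its annotation and its strand setting. Rows were matched by gene symbol, and members and gene lists were chosen with earlier results of these data known. The counts were fitted with edgeR 4.0.16 (R 4.3.3) with TMM factors, filterByExpr and 1 mean per group over all 12 libraries. The quasi-likelihood test gave 5 contrasts, with p-values adjusted by Benjamini-Hochberg over 14505 genes and called under 0.05. Replicate numbers do not pair libraries: the 18 same-numbered pairs deviated together by r of -0.03 to 0.05. Replicates differed beyond counting noise, so none was counted as a duplicate. Named were, per class and comparison, up to 3 called rises and 3 falls of largest change, the 2 most abundant members, every osmolyte carrier, and the members under the level limit, by values. From this set the text gives those with the largest changes or levels, and a few named genes are not reported here. Alternatives were relative log expression and upper-quartile factors, DESeq2 1.42.0, limma-voom (limma 3.58.1), 2 count filters, the replicate block and leaving out each library. Levels per kilobase and exon overlaps used GENCODE M21 merged exons, and promoters came from RefSeq on GRCm38.p6, a build other than mm39.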

Additional observations from a re-analysis of the deposited data

Results flagged for a closer look

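These members differed between cells with and without PSTO in their response to LPS, by the interaction term of the edgeR fit over all genes (log2, LPS change with PSTO minus LPS change without). Among osmolyte and creatine carriers the interaction was 2.49 for Slc5a3, 0.85 for Slc6a8 and -0.50 for Slc6a12. Among amino acid and peptide carriers it was -1.51 for Slc15a3, -0.89 for Slc1a4, -0.78 for Slc7a7, 0.86 for Slc36a1, 0.52 for Slc16a10 and 0.31 for Slc43a2. Among ion and metal carriers it was -1.52 for Slc12a9, -1.15 for Slc12a4, -0.96 for Slc12a7, 0.55 for Slc39a6, 0.49 for Slc31a1 and 0.33 for Slc9a4. Mitochondrial carriers held -0.94 for Slc25a28, -0.60 for Slc25a33, -0.48 for Slc25a25 and 0.69 for Slc25a30. Slc35 members held -0.68 for Slc35f6 and -0.27 for Slc35a4. Sugar and monocarboxylate carriers held 0.83 for Slc16a1, -0.95 for Slc37a3 and -0.29 for Slc2a6. Carriers of other substrates held -1.25 for Slc29a3, -0.88 for Slc23a2, -0.64 for Slc10a7, 0.87 for Slc17a5, 0.58 for Slc44a2 and 0.36 for Slc48a1. The call was lost under 15 of 19 alternatives for Slc2a6, 10 for Slc35a4, 7 for Slc25a25, 6 for Slc43a2, 4 for Slc1a4, 3 for Slc44a2, and 1 each for Slc10a7, Slc25a33, Slc48a1 and Slc9a4.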

How the results depend on the processing

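Of 182 named gene and comparison pairs, 157 kept their direction and call under all 19 alternatives. The reversed values were all uncalled in the main setting. For Slc6a12, LPS against control moved to -0.0042 with relative log expression factors and with DESeq2, -0.15 with upper-quartile factors and -0.0087 with no filter on low counts, and ranged from -0.0457 to 0.0387 when libraries were left out. Slc6a6 in PSTO+LPS against LPS read -0.0090 with no filter and -0.0332 to 0.0504 with libraries left out. Slc5a3 for PSTO against control ranged from -0.017 to 0.129, and Slc6a8 for PSTO+LPS against PSTO from -0.0716 to 0.0394. The count of negative interactions ranged from 20 to 34 with libraries left out, and the cause was not tested. Upper-quartile factors lowered the median of all genes by 0.15 for LPS against control and gave 32 higher and 69 lower members there. With the replicate block the counts were 39 and 56 for LPS, 28 and 36 for PSTO, 33 and 68 for LPS after PSTO, 31 and 55 for PSTO+LPS against LPS, and 15 and 30 for the interaction. Replicate numbers share only a number, since no pair deviated together. The spread between libraries limits small changes: the median coefficient of variation of a member was 4.83% in control and 8.24% in PSTO+LPS, with a highest value of 35.1%.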
